A study of Mus musculus with 10 samples.

Results

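Cerebellins are small secreted proteins of the C1q family that hold synapses together. The report follows 7 genes of this system in mouse medulloblastoma and cerebellum: the cerebellins Cbln1, Cbln2, Cbln3 and Cbln4, the delta-type glutamate receptor gene Grid1, and the neurexin genes Nrxn2 and Nrxn3. They were taken by gene symbol from the 50559 genes counted in each of 10 libraries, and all 7 passed the filter on low counts that 29952 genes passed. A cerebellin released by the axon binds neurexins on the presynaptic side and delta-type glutamate receptors on the postsynaptic side, and so bridges the synaptic cleft. In the cerebellum, granule neurons are the main source of Cbln1, which maintains their synapses on Purkinje cells. Cbln3 is made almost exclusively by granule neurons and leaves the cell only when assembled with Cbln1, whereas Cbln2 and Cbln4 are better known from forebrain, brain stem and spinal neurons, and Cbln4 can also bind the netrin receptor DCC.

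RNA libraries of 3 groups, all from formalin-fixed, paraffin-embedded (FFPE) tissue, were compared. The 4 MYC/SMARCA4 tumors grew in the cerebellum of CD1nu/nu hosts, which lack T cells and had received granule cell precursors (GCPs). Only a part of these GCPs carried both SMARCA4 loss and MYC overexpression. The GCPs came from Math1-creERT2::Smarca4fl/fl pups given tamoxifen at P3, in which Cre is limited to the Math1 lineage. They were transduced with a lentivirus in which a CMV promoter drives murine Myc together with GFP, and they were transplanted without sorting for recombined or transduced cells. Tumors 1 to 4 are labelled with ages of 112, 96, 89 and 79 days. The 3 P7 cerebella were whole cerebella of 7-day-old Math1-creERT2::Smarca4fl/fl mice that were given tamoxifen (0.4 mg) at P3, so these controls carried the induced Smarca4 deletion in their Math1 lineage too. The 3 SHH MB were medulloblastomas of Math1-cre::Smofl/wt mice, in which Cre activates Smoothened in the same lineage, and the labels give an age of 7 days for them. Their Smarca4 was not targeted. Age, host and culture therefore differ between the tumors and both other groups and cannot be told apart from tumor type. A biopsy punch can hold host cerebellum besides tumor cells.

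Between 5663491 and 9352109 reads were counted on genes per library. Levels are given as log2 CPM, which is the read count relative to all counted reads of the library, with library sizes scaled by the TMM method, and 3 counts, taken as the floor, equal 0.307 to 0.744 CPM. Smarca4 averaged 7.66 ± 0.39 log2 CPM (SD, n = 4) in the tumors, 7.98 ± 0.18 (n = 3) in P7 cerebella and 9.08 ± 0.13 (n = 3) in SHH MB. Its counts cover the whole gene and not the deleted part alone. Myc averaged 9.10 ± 1.51 in the tumors against 3.78 ± 0.07 in P7 cerebella and 5.29 ± 0.22 in SHH MB. Tumors 1 to 4 had Myc at 7.25, 8.52, 10.63 and 9.99 log2 CPM. In the neuronal marker lists given further below, tumor 1 had the highest means and tumor 3 the lowest, with tumors 2 and 4 between. Results that rest on single libraries are given with and without them. No 2 libraries of the same group agreed within counting noise. Nothing in the labels says that samples of a group came from different litters, so p-values measure the spread between these samples.

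As the 4 cerebellins are related genes, it was first asked whether a single-end read of 75 bases could be counted on the wrong one. The coding sequences of their canonical transcripts (GENCODE M39, GRCm39) run over 579 bases in Cbln1, 672 in Cbln2, 591 in Cbln3 and 594 in Cbln4. Cbln1 and Cbln3, the pair on which most of the results below turn, were identical at 67.4% of 567 aligned coding bases. The longest run of identical bases that their transcripts share was 21 bases, and over all 6 pairs of cerebellins such runs had between 13 and 21 bases. The stretch of 75 bases in which Cbln3 is most like Cbln1 is shown here, with the matching stretch of Cbln4. It is the coding stretch where reads of Cbln1 and Cbln3 would be most easily mixed. Capitals in the Cbln1 line mark the 16 bases that differ in Cbln3. In the other lines capitals mark the bases that differ from Cbln1, which were 16 in Cbln3 and 22 in Cbln4.
Cbln1: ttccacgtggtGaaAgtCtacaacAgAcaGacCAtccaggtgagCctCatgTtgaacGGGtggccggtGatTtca
Cbln3: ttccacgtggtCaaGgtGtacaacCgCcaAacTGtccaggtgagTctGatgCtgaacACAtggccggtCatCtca
Cbln4: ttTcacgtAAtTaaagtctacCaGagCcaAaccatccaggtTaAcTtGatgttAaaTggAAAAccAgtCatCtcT
These stretches lie in coding exons, begin at coding base 346 in Cbln1, 358 in Cbln3 and 361 in Cbln4, and each crosses an exon junction, so that they span chr8:88197044-88198358, chr14:56120599-56120962 and chr2:171879452-171880932, all on the minus strand. Between Nrxn2 and Nrxn3 the longest shared run was 23 bases at a coding identity of 68.7%. No pair of these genes shared a run as long as a read. The closest aligned coding stretches of 75 bases differed at 9 bases for Cbln1 and Cbln2, and at 9 for Nrxn2 and Nrxn3.

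Genes that overlap a member can change its count, those on the opposite strand where counting ignores strand. The strand setting of the counting is not given in the sources used here. In the annotation, Cbln3 (chr14:56116370-56121849, minus strand) overlaps exons of its neighbor Khnyn by 28 bases, or 0.58% of its exon length. Cbln1 (chr8:88195033-88199261, minus strand) overlaps the long noncoding RNA Gm19872 by 591 bases or 19.3%. For the other members the largest exonic overlap ranged from 1.34% of exon length for Cbln4 (chr2:171878142-171885460, minus strand) to 5.03% for Cbln2 (chr18:86729008-86738347, plus strand). Grid1 (chr14:34541769-35305336), Nrxn2 (chr19:6468761-6594199) and Nrxn3 (chr12:88689646-90301709) lie on the plus strand.

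Cbln3, the granule neuron cerebellin, was higher in the MYC/SMARCA4 tumors than in either other group. Tumors 1 to 4 held 7098, 2568, 306 and 1851 Cbln3 reads, which corresponded to levels of 10.78, 8.85, 5.43 and 7.82 log2 CPM. The P7 cerebella held 295, 328 and 213 reads at 4.93, 5.17 and 4.94 log2 CPM, and SHH MB only 72, 88 and 40 reads at 3.52, 3.41 and 2.57. Every tumor was above every P7 cerebellum, and every P7 cerebellum was above every SHH MB, although tumor 3 exceeded the highest cerebellum by little. Against P7 cerebella the fitted log2 fold change was 4.28 (SE 0.95, adjusted p = 0.0239, edgeR quasi-likelihood test with Benjamini-Hochberg adjustment over 29952 genes), a 19.4-fold higher level. Against SHH MB it was 6.10 (SE 1.05, adjusted p = 0.00666, edgeR), or 68.4-fold. These folds rest on mean counts, to which tumor 1 adds most, and the means of the log2 levels lay closer together, at 8.22 ± 2.23 (SD, n = 4) in the tumors, 5.01 ± 0.14 (n = 3) in P7 cerebella and 3.17 ± 0.52 (n = 3) in SHH MB. Leaving out tumor 1, the log2 fold change was 2.94 against P7 cerebella and 4.74 against SHH MB, and both stayed past an adjusted p of 0.05. In bulk tissue, a higher share of cells expressing a gene and more RNA per cell cannot be told apart. The call against P7 cerebella was lost when any single P7 cerebellum was left out (adjusted p = 0.110, 0.126 and 0.133, edgeR), and the call against SHH MB when SHH MB 3 was left out (adjusted p = 0.0545, edgeR). In fits of only the 2 groups compared, the call against P7 cerebella was lost (adjusted p = 0.0921, edgeR). The call against SHH MB was kept there (adjusted p = 0.0438, edgeR).

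**Figure D1:**
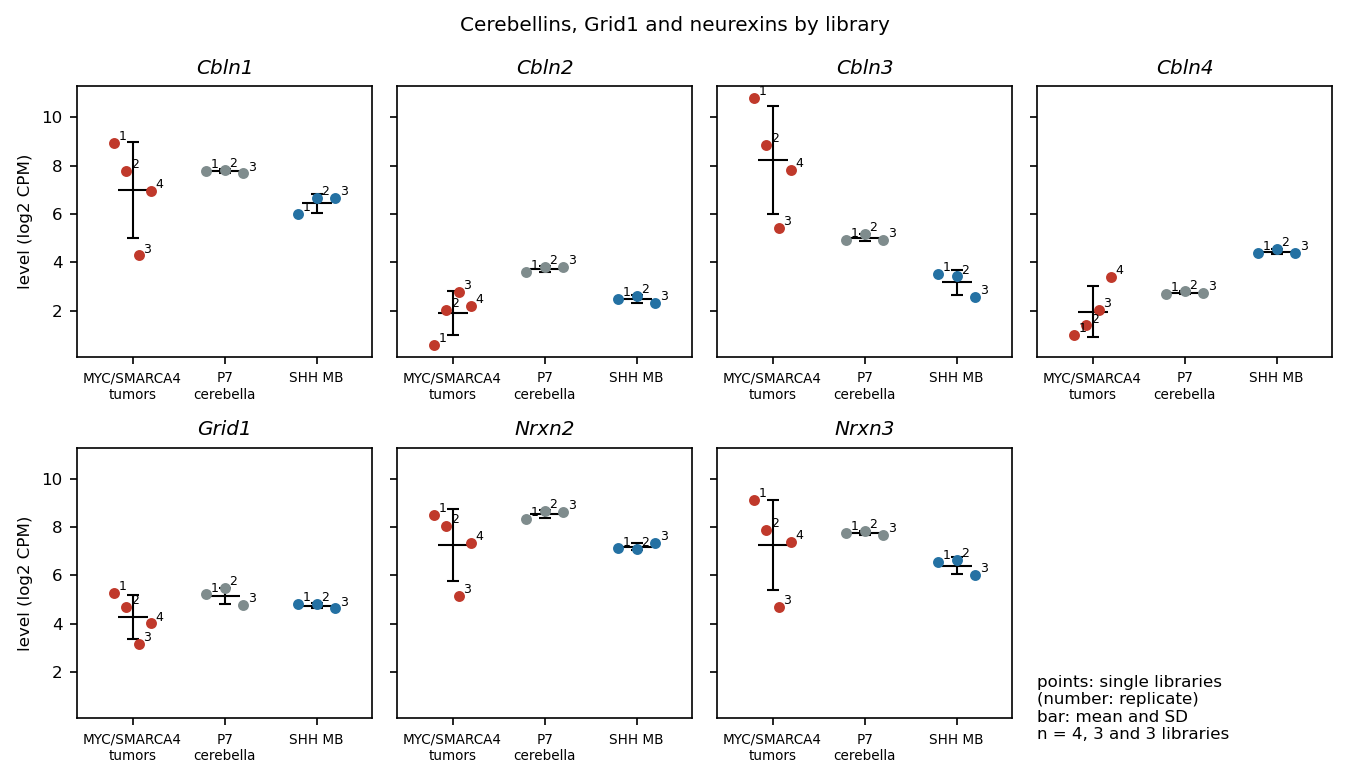
Level of each member in log2 CPM (vertical axis) in the 4 MYC/SMARCA4 tumors, 3 P7 cerebella and 3 SHH MB. Points are libraries with their replicate number, and bars give the mean and SD of each group. Cbln3 is the member whose tumors all lie above both other groups, Cbln4 is highest in SHH MB, and tumor 3 is the lowest tumor for Cbln1, Cbln3, Grid1, Nrxn2 and Nrxn3.

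Cbln1, the cerebellin of granule neuron synapses on Purkinje cells, did not pass the test in either comparison of the tumors. The tumors held 1962, 1225, 137 and 1013 reads, at 8.93, 7.79, 4.28 and 6.95 log2 CPM. The P7 cerebella lay close together at 7.79, 7.83 and 7.67 log2 CPM, inside the range of the tumors, and SHH MB lay at 5.98, 6.65 and 6.67. The tumors thus spread over 25.03-fold on both sides of the cerebella, and the fitted log2 fold change of the tumors was -0.04 against P7 cerebella (95% interval -1.36 to 1.28, adjusted p = 0.974, edgeR) and 1.27 against SHH MB (interval -0.10 to 2.63, adjusted p = 0.341, edgeR). Single tumors decided these values. The difference from SHH MB passed the test without tumor 3 (adjusted p = 0.0201, edgeR) and shrank to a log2 fold change of 0.45 without tumor 1 (adjusted p = 0.720, edgeR), and the value against P7 cerebella was -0.83 without tumor 1 (adjusted p = 0.348, edgeR).

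The balance between both genes can be read within a library, free of any scaling between libraries. In tumors 1 to 4 there were 3.62, 2.10, 2.23 and 1.83 Cbln3 reads for every Cbln1 read, whereas P7 cerebella had 0.136, 0.157 and 0.149 and SHH MB 0.178, 0.104 and 0.0559. The lowest tumor had a 95% counting interval of 1.69 to 1.97 and the highest of the other libraries, SHH MB 1, one of 0.139 to 0.229. Tumor 3, whose levels of both genes were the lowest of the 4, had a ratio within the range of the other tumors. The geometric mean ratio was 16.0-fold higher in the tumors than in P7 cerebella and 23.3-fold higher than in SHH MB. The ratio was chosen after the values of both genes had been seen and is given with no test. The intervals of the ratios cover counting error only.

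Levels of different genes can be compared only per length, here as CPM per kilobase of exon. On this scale Cbln1 was the highest of the 7 members in P7 cerebella (71.1 ± 4.04, SD, n = 3) and in SHH MB (28.8 ± 7.16, n = 3), while Cbln3 ranked first in the tumors (128 ± 160, n = 4) ahead of Cbln1 (69.4 ± 65.4). Cbln1 made up 86.3% to 87.7% of the summed cerebellin level in P7 cerebella and Cbln3 only 7.50% to 8.54%. In the tumors Cbln3 took 50.7% to 69.4% and Cbln1 30.5% to 44.4%. SHH MB kept Cbln1 as the main cerebellin with 67.2% to 79.0%, but there Cbln4 was the next largest with 16.4% to 22.5%. The shares of Cbln1 and of Cbln3 in the tumors overlapped with those of neither other group, whereas the summed cerebellin level of the tumors, 17.4 to 521 CPM per kilobase, spanned those of P7 cerebella (77.2 to 86.1) and of SHH MB (30.5 to 43.6).

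**Figure D2:**
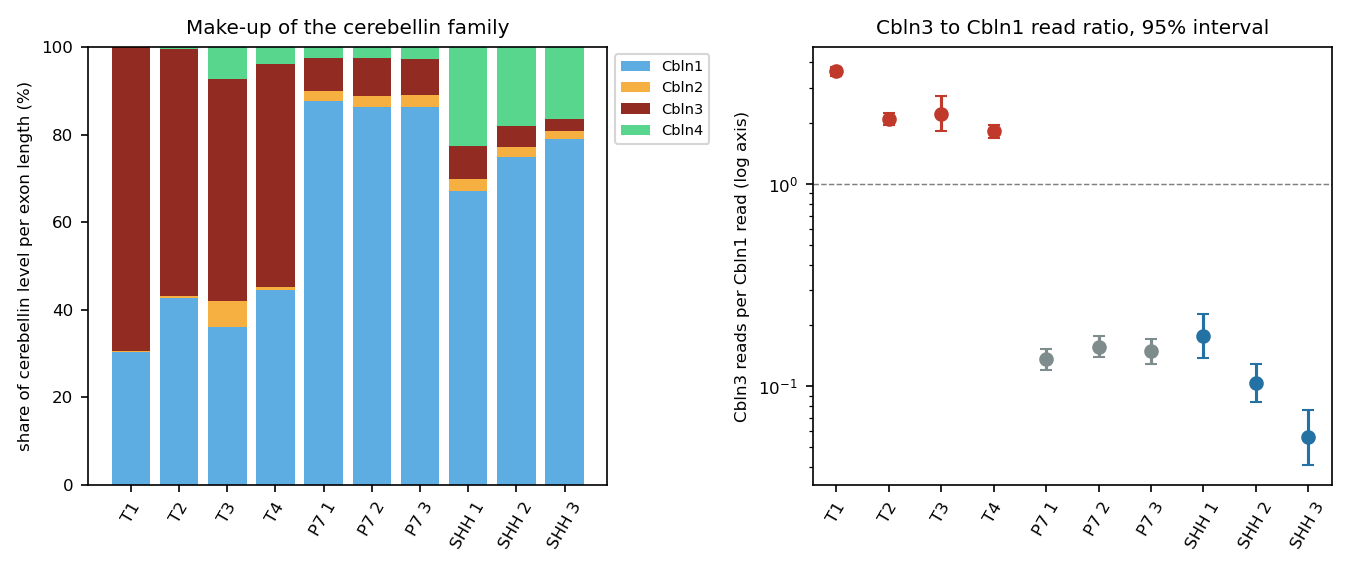
Left, share of each cerebellin in the summed level of the 4 genes per exon length (percent, vertical axis) for tumors T1 to T4, P7 cerebella and SHH MB. Right, Cbln3 reads per Cbln1 read in each library on a log axis with 95% counting intervals; all 4 tumors lie above 1 and the other 6 libraries below 0.2.

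Cbln4 and Cbln2 were read at much lower counts. Cbln4 had 7, 13, 27 and 84 reads in tumors 1 to 4, equal to 1.01, 1.39, 2.02 and 3.40 log2 CPM. In SHH MB it had 132, 199 and 145 reads at 4.38, 4.57 and 4.38 log2 CPM, above every other library. P7 cerebella lay between, with 61, 61 and 45 reads at 2.702, 2.794 and 2.743 log2 CPM, and overlapped with the tumors only because of tumor 4. The tumors were 4.61-fold lower than SHH MB (log2 fold change -2.20, SE 0.48, adjusted p = 0.0213, edgeR) and did not pass the test against P7 cerebella (log2 fold change -0.46, 95% interval -1.41 to 0.48, adjusted p = 0.537, edgeR). Without tumor 4 the log2 fold change was -1.28 against P7 cerebella (adjusted p = 0.0888, edgeR) and -3.01 against SHH MB (adjusted p = 0.00183, edgeR). The call against SHH MB was lost without tumor 2, SHH MB 1, SHH MB 2 or SHH MB 3, with adjusted p of up to 0.107 (edgeR). It was also lost in a fit of only the tumors and SHH MB (adjusted p = 0.0751, edgeR).

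Cbln2 had 5, 21, 47 and 35 reads in tumors 1 to 4, at 0.60, 2.02, 2.78 and 2.18 log2 CPM, so that the tumor with the most Cbln3 had the fewest Cbln2 reads. The P7 cerebella had 115, 127 and 95 reads at 3.59, 3.82 and 3.79 log2 CPM, all above the tumors. SHH MB had 34, 50 and 33 reads at 2.48, 2.62 and 2.31, within the range of the tumors. Cbln2 was 3.21-fold lower in the tumors than in P7 cerebella (log2 fold change -1.68, SE 0.41, adjusted p = 0.0343, edgeR) and did not pass the test against SHH MB (log2 fold change -0.39, 95% interval -1.22 to 0.45, adjusted p = 0.658, edgeR). This call was kept under 7 of 17 alternatives. It was lost without tumor 2, tumor 4 or any single P7 cerebellum or SHH MB, with adjusted p of up to 0.180 (edgeR). A fit of only the tumors and P7 cerebella lost it too (adjusted p = 0.140, edgeR).

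Of the partner genes among the members, Grid1, Nrxn2 and Nrxn3, none passed the test in either comparison of the tumors. Grid1 encodes the delta-1 receptor, a postsynaptic partner of Cbln1 and Cbln2. Its levels were 5.26, 4.71, 3.16 and 4.01 log2 CPM in tumors 1 to 4, 5.21, 5.46 and 4.79 in P7 cerebella, and 4.81, 4.81 and 4.63 in SHH MB. All 3 groups overlapped for Grid1, and its log2 fold change in the tumors was -0.71 against P7 cerebella (95% interval -1.49 to 0.07, adjusted p = 0.272, edgeR) and -0.28 against SHH MB (interval -1.07 to 0.51, adjusted p = 0.743, edgeR). Without tumor 1 Grid1 was called lower than in P7 cerebella (log2 fold change -1.09, adjusted p = 0.0411, edgeR).

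The neurexins are presynaptic adhesion proteins to which cerebellins bind through an alternatively spliced site, and gene counts do not separate these splice forms. Nrxn2 stood at 8.50, 8.05, 5.15 and 7.33 log2 CPM in tumors 1 to 4, at 8.35, 8.66 and 8.63 in P7 cerebella and at 7.11, 7.08 and 7.36 in SHH MB. Nrxn3 stood at 9.12, 7.87, 4.68 and 7.38 in the tumors, at 7.76, 7.85 and 7.67 in P7 cerebella and at 6.57, 6.65 and 6.004 in SHH MB. For both genes the tumors ranged from below the lowest SHH MB to near or above the P7 cerebella. The log2 fold change of the tumors against P7 cerebella was -0.87 for Nrxn2 (95% interval -1.90 to 0.16, adjusted p = 0.305, edgeR) and 0.18 for Nrxn3 (interval -1.09 to 1.45, adjusted p = 0.869, edgeR). Against SHH MB it was 0.50 for Nrxn2 (interval -0.55 to 1.55, adjusted p = 0.651, edgeR) and 1.51 for Nrxn3 (interval 0.18 to 2.83, adjusted p = 0.237, edgeR). Nrxn3 passed the test against SHH MB once tumor 3 was left out (adjusted p = 0.00865, edgeR), whereas without tumor 1 its log2 fold change was 0.71 against SHH MB (adjusted p = 0.506, edgeR) and -0.60 against P7 cerebella (adjusted p = 0.472, edgeR).

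Over all members, 2 of 7 passed an adjusted p of 0.05 between tumors and P7 cerebella, where 6.25% of all genes tested did, and 2 of 7 between tumors and SHH MB, where 4.68% did. Groups did not overlap for the same 2 members in each comparison, against 21% and 16.1% of all genes. Exact permutation tests on the log2 levels gave p = 0.0571 for each of these calls, where 4 against 3 libraries cannot give less than 0.0286. Under a stricter rule, with 2.5 as the smallest log2 fold change and 0.01 as the largest adjusted p, Cbln3 against SHH MB was the 1 member called, beside 0.601% of all genes, and none was called against P7 cerebella, beside 0.29%. The 2 comparisons share the 4 tumors, and no test between them was made.

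**Figure D3:**
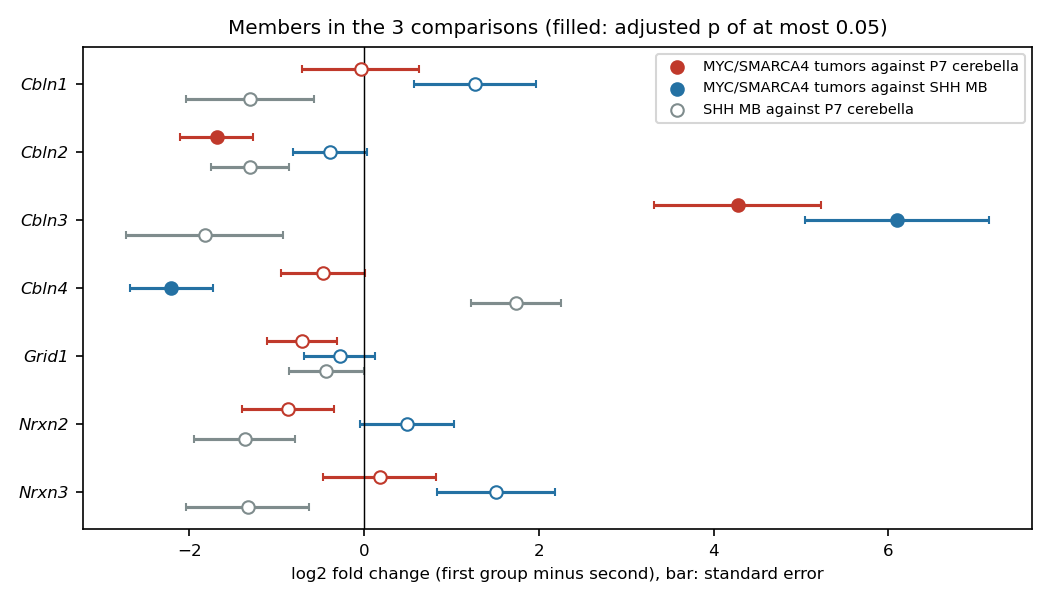
Fitted log2 fold change (horizontal axis) with its standard error for the 7 members in the 3 comparisons. Filled points passed an adjusted p of 0.05: Cbln3 (higher) and Cbln2 (lower) for tumors against P7 cerebella, and Cbln3 (higher) and Cbln4 (lower) for tumors against SHH MB.

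SHH MB and P7 cerebella share the label of 7 days. Every SHH MB was below every P7 cerebellum for Cbln1, Cbln2, Cbln3, Nrxn2 and Nrxn3 and above every P7 cerebellum for Cbln4, so that 6 of 7 members did not overlap, as did 36.8% of all genes. The fitted log2 fold changes were -1.30, -1.30, -1.82, -1.36 and -1.33 for the 5 lower ones and 1.74 for Cbln4, whereas Grid1 stood at -0.43 with overlap. The fit over all 10 libraries has a common spread that includes that of the tumors. In it none of the 7 passed an adjusted p of 0.05 by edgeR, beside 0.224% of all genes. An unadjusted p under 0.05 was reached by 3 of the 7 (Cbln2, Cbln4 and Nrxn2), beside 2635 of the 29952 genes tested. DESeq2 called Cbln4 and limma called none. In a fit of these 2 groups alone, 6 of 7 passed (adjusted p of at most 0.000113, edgeR) beside 23.7% of all genes, with similar fold changes of -1.28, -1.27, -1.80, -1.34 and -1.31 for the lower ones and 1.76 for Cbln4. An exact permutation test of 3 against 3 libraries cannot give less than 0.1, the value each of the 6 had.

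Within the MYC/SMARCA4 tumors the members spread over wider ranges than within the other groups, and this was not particular to them. Across the genes read in a pair of libraries, the chi-square per degree of freedom was 26.6 to 99.1 between tumors. It was 4.03 to 6.22 between P7 cerebella and 3.76 to 5.50 between SHH MB. Cbln3 spanned 40.8-fold, Cbln1 25.03-fold, Nrxn3 21.8-fold, Nrxn2 10.2-fold and Grid1 4.30-fold between tumor 1 and tumor 3. The TMM factors, 0.619 in tumor 1 and 1.28 in tumor 3, widen these spans beyond those of levels scaled by total counts alone. In P7 cerebella the widest range of any member was the 1.60-fold of Grid1, and in SHH MB the 1.93-fold of Cbln3. These 5 members all had the order tumor 1, tumor 2, tumor 4, tumor 3 from high to low, an order that 14.2% of all genes tested showed. Cbln2 ran the opposite way, with tumor 3 highest and tumor 1 lowest, and Cbln4 was highest in tumor 4 and lowest in tumor 1. Myc also ran opposite to the 5 members, from 10.63 log2 CPM in tumor 3 to 7.25 in tumor 1. Its relation to the members was not tested.

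Markers of granule neurons and of other neurons had the same order. The mean of 8 markers of mature granule neurons, among them Gabra6, Grin2c and Slc17a7, was 8.99, 7.54, 4.75 and 6.92 log2 CPM in tumors 1 to 4. It was 5.46 to 5.78 in P7 cerebella and 4.22 to 4.39 in SHH MB. Of the 8, 3 were higher in the tumors than in P7 cerebella, where 3.99% of all genes were, and 5 were higher than in SHH MB, where 2.43% were, by the same test, and none was lower. Against SHH MB, 3 of 5 markers of neurons in general, 2 of 7 of Purkinje cells and 1 of 7 of inhibitory interneurons were higher as well. Against P7 cerebella none of these 3 lists had a marker called by edgeR. An unadjusted p under 0.05 was reached there by 2, 2 and 1 of them, beside 7558 of the 29952 genes tested. In the tumors 7 of these 8 markers had the order of the 5 members, as did 7 of 7 Purkinje cell markers, 5 of 7 of inhibitory interneurons, 4 of 5 of neurons in general and 5 of 7 of myelinating oligodendrocytes. It was seen in 1 of 6 markers of granule cell precursors, 1 of 8 of astrocytes and Bergmann glia, 0 of 5 of choroid plexus and 0 of 6 genes of the SHH pathway. No marker of these lists was at 0 in any library, and the Purkinje cell mean alone ran from 3.73 in tumor 3 to 9.14 log2 CPM in tumor 1. The part of host neurons in the levels of the members was not tested.

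The levels of Cbln3 and Cbln1 were also set against the granule neuron mean of the same library. These levels were not divided by length, so only shifts between libraries can be read, not whether a gene lies above or below the mean. Cbln3 minus that mean was 1.79, 1.32, 0.68 and 0.90 log2 units in tumors 1 to 4. It was -0.79 to -0.52 in P7 cerebella and -1.69 to -0.70 in SHH MB. Cbln1 minus the mean was -0.46 to 0.25 in the tumors, 2.05 to 2.21 in P7 cerebella and 1.76 to 2.40 in SHH MB. For both differences from the granule neuron mean the tumors overlapped with neither other group, tumor 3 included. The Cbln3 difference also did not overlap when set against the means of Purkinje cell, inhibitory interneuron or general neuron markers. The Cbln1 difference then overlapped with SHH MB for each of these lists, and with P7 cerebella for the interneuron list. Minus the interneuron mean, Cbln1 was 0.92 to 1.97 in the tumors and 1.71 to 1.93 in P7 cerebella. These differences are descriptions chosen after the values were seen, with no test.

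**Figure D4:**
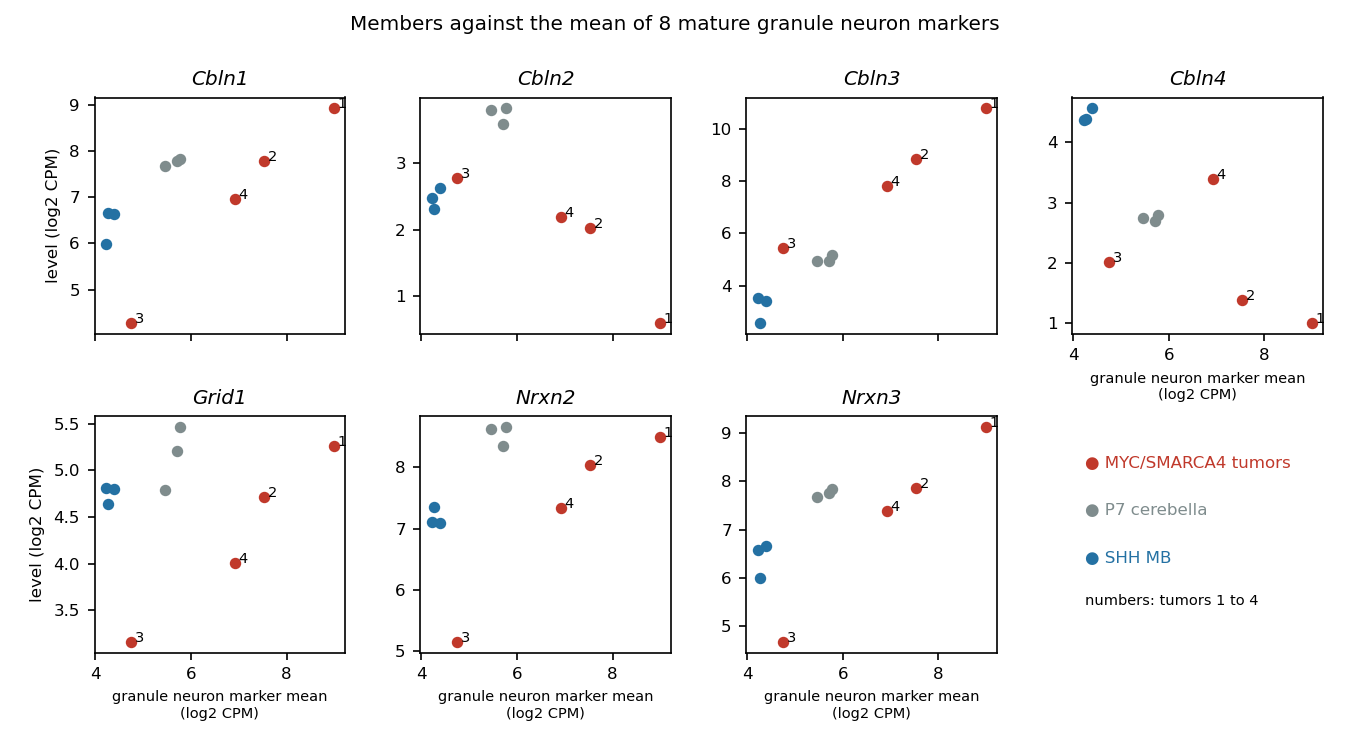
Level of each member (vertical axis, log2 CPM) against the mean of 8 mature granule neuron markers in the same library (horizontal axis, log2 CPM), with tumors numbered 1 to 4. Within the tumors 5 members rise along the marker mean from tumor 3 to tumor 1, and Cbln2 falls. The P7 cerebella have marker means between those of tumor 3 and tumor 4, with Cbln1 above and Cbln3 below both of these tumors.

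The genes whose levels ran most alike over the 10 libraries were named for each member from 16661 genes with a mean above 1 log2 CPM. All share the same libraries, so the values of r are descriptions. Cbln3 was nearest to Exph5 (Pearson's r = 0.993), to Nr1d1, the circadian nuclear receptor REV-ERB alpha (0.993), and to Aldoa, a glycolytic aldolase (0.990). Cbln1 was nearest to the neural adhesion molecules Cadm3 (r = 0.995) and Opcml (0.995) and to Fnbp1 (0.992). The genes near to Cbln4 included Septin10 (r = 0.975) and Sfrp2, a secreted Wnt modulator (0.971). Nrxn2 was nearest to Plppr4 (r = 0.988), to Apba1, the neurexin adaptor Mint1 (0.987), and to the protocadherin Pcdh1 (0.987), and Nrxn3 to Tspyl4 (0.994), Tmem9b (0.991) and the postsynaptic scaffold gene Shank2 (0.987). Grid1 was nearest to Paqr3 (r = 0.986), Eps8 (0.976) and Fbxo25 (0.973), and Cbln2 to Slc13a1 (0.971), Cntn5 (0.969) and Pax5 (0.967).

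Other genes of these synapses were followed as a list of 25, all of which were tested. Between tumors and P7 cerebella 0 were higher and 5 lower, with a median log2 fold change of -0.85 beside -0.05 over all genes, of which 3.99% were called higher and 2.27% lower. Between tumors and SHH MB 0 were higher and 4 lower, with a median of -0.30 beside 0.01 over all genes, of which 2.43% were called higher and 2.26% lower. An unadjusted p under 0.05 in either direction was reached by 10 of the 25 in each comparison. Of the 29952 genes tested, 7558 reached it against P7 cerebella and 5939 against SHH MB. DESeq2 called 0 of the 25 higher against P7 cerebella and 1 against SHH MB. Between SHH MB and P7 cerebella none of the 25 was called by edgeR, and DESeq2 called 3. An unadjusted p under 0.05 was reached there by 9 of the 25, beside 2635 of the 29952 genes tested. The number of lower genes depended on single libraries, ranging from 1 without P7 cerebellum 3 to 15 without tumor 3 in the first comparison and from 4 to 6 in the second. The calls over all genes moved with it in the first comparison. They were 198 of 31510 genes without P7 cerebellum 3 and 9932 of 28724 without tumor 3.

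Among the C1q-like ligands, which resemble cerebellins but bind other receptors, C1ql1 fell in both comparisons. This gene, whose protein is known as the climbing fiber ligand of Purkinje cells, averaged 2.12 log2 CPM in the tumors, 4.33 in P7 cerebella and 6.003 in SHH MB, with log2 fold changes of -2.20 (SE 0.33, adjusted p = 0.00422, edgeR) and -3.91 (SE 0.34, adjusted p = 6.59e-05, edgeR). C1ql2, C1ql3 and C1ql4 did not pass the test in any comparison. Dcc, the netrin receptor that Cbln4 can bind, averaged 4.12 log2 CPM in the tumors, 7.47 in P7 cerebella and 9.53 in SHH MB. It was 21.8-fold lower in the tumors than in SHH MB (log2 fold change -4.45, SE 0.81, adjusted p = 0.00896, edgeR) and did not pass the test against P7 cerebella (log2 fold change -2.39, adjusted p = 0.0774, edgeR), although the groups did not overlap. Cbln4 and Dcc thus were both lower in the tumors than in SHH MB.

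Of the neurexophilins, secreted ligands of neurexins, Nxph3 was lower in both comparisons (log2 fold change -1.31, adjusted p = 0.0344 against P7 cerebella, and -2.70, adjusted p = 0.000662 against SHH MB, edgeR). Nxph4 was lower than in P7 cerebella (log2 fold change -2.64, SE 0.52, adjusted p = 0.0155, edgeR) and stood at -0.52 against SHH MB without passing. Mdga1, which blocks the binding of neuroligins to neurexins, was lower in both, with log2 fold changes of -2.67 (adjusted p = 0.00625, edgeR) and -3.84 (adjusted p = 0.000477, edgeR), whereas Mdga2 did not pass in either (-0.85 and -0.61). The kainate receptor subunit gene Grik4 was lower than in P7 cerebella (log2 fold change -1.05, adjusted p = 0.0480, edgeR). None of 9 postsynaptic binding partners of neurexins, such as the neuroligins Nlgn1 to Nlgn3 and the leucine-rich repeat proteins Lrrtm1 to Lrrtm4, passed by edgeR in either comparison, nor did the adaptors Cask and Apba1. Of the 9, 1 had an unadjusted p under 0.05 against P7 cerebella and 3 against SHH MB, beside 7558 and 5939 of the 29952 genes tested. Clstn3, a calsyntenin, had the highest fitted value of the list against SHH MB at 2.24 with overlapping groups (adjusted p = 0.112, edgeR).

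**Figure D5:**
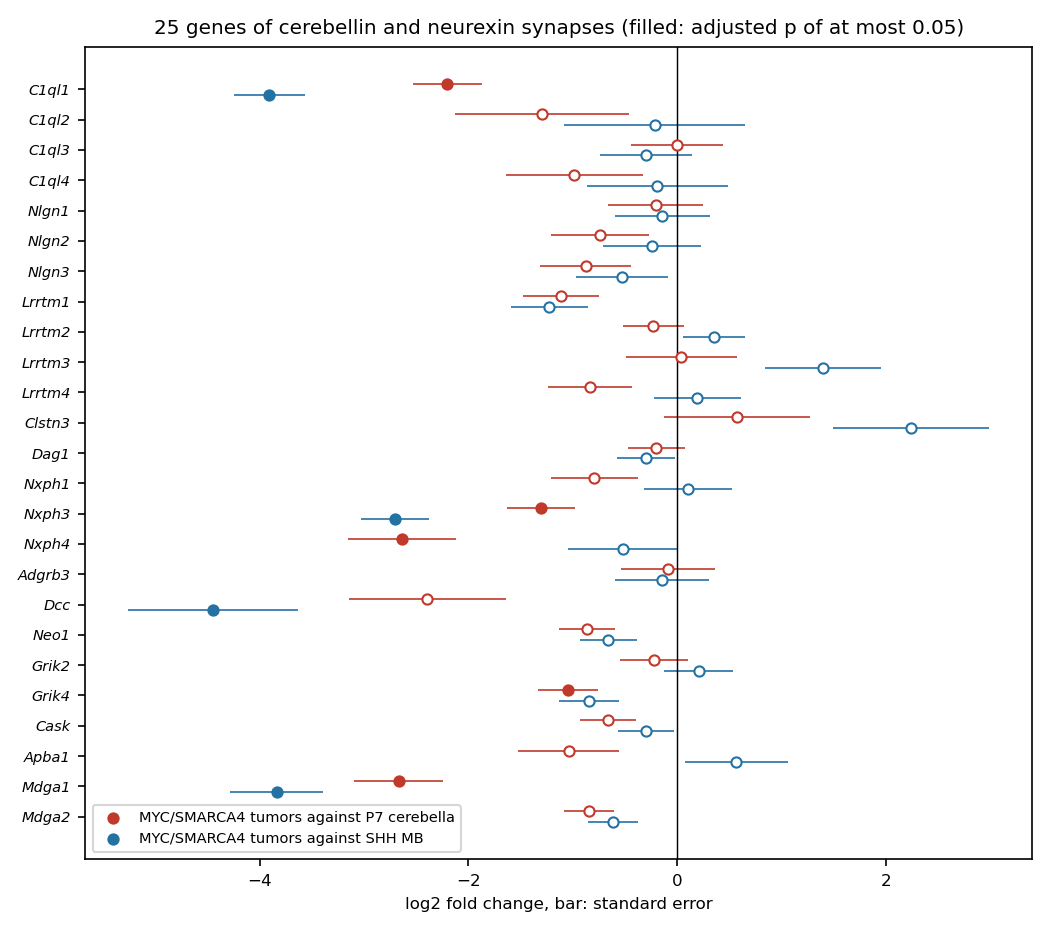
Fitted log2 fold change with its standard error (horizontal axis) for 25 other genes of cerebellin and neurexin synapses, for tumors against P7 cerebella and tumors against SHH MB. Filled points passed an adjusted p of 0.05, and all of them lie below 0: C1ql1, Nxph3 and Mdga1 in both, Nxph4 and Grik4 against P7 cerebella, and Dcc against SHH MB.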

How the data were processed

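Libraries of 4 MYC/SMARCA4 tumors, 3 P7 cerebella and 3 SHH MB were analysed. According to the submitters' processing notes, reads were checked with FastQC (0.73), trimmed with Trimmomatic (0.38.1), aligned to GRCm39 with STAR (2.7.8a) and counted with featureCounts (2.0.1). The deposited counts are whole reads per gene without normalization. The authors also deposited VST values on a log2 scale, made with DESeq2 (2.11.40.7) and used here for 1 alternative. Total counts were 5663491 to 9352109 per library, and floors and the intervals of read ratios cover counting error only.

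All 10 libraries entered 1 quasi-likelihood fit (edgeR 4.0.16, R 4.3.3) with a mean per group, TMM factors and filterByExpr. Over the 29952 genes tested, p-values were adjusted by the Benjamini-Hochberg method, and 0.05 was the threshold. The SE is the log2 fold change divided by the root of F, and intervals of fold changes, which include the spread between samples, are 1.96 SE to each side. Log2 CPM used a prior count of 2, and permutation tests were two-sided and exact. Alternatives were RLE factors, no filter, at least 10 counts in every library, robust estimation, only the 2 groups compared, the replicate block, DESeq2 1.42.0, limma 3.58.1 on the VST values, each library left out, a prior count of 0.5, shares without length, and the stricter threshold of a log2 fold change of 2.5 with an adjusted p of 0.01. The fit was tested on simulated data.

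Members were named by symbol. Genes alike in pattern were the 3 with the highest Pearson's r per member. The members, lists and tests were chosen with earlier results of these data known. Exon lengths, positions and sequences come from GENCODE M39. Results for some other genes are not reported here.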

Additional observations from a re-analysis of the deposited data

How the results depend on the processing

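Of 372 values that the alternatives gave for single members, 326 kept their direction and their side of the threshold, 22 lost the call, 13 gained one and 11 changed sign. The number of members called between tumors and P7 cerebella was 2, and it was 1 with at least 10 counts in every library, 0 with the replicate block, 0 with only the 2 groups compared, 1 with limma on the VST values, 0 at the stricter threshold, and 0 to 3 with 1 library left out. Between tumors and SHH MB it was 2, and it was 1 with at least 10 counts in every library, 1 with only the 2 groups compared, 1 at the stricter threshold, and 0 to 4 with 1 library left out. Between SHH MB and P7 cerebella it was 0, and it was 6 with only the 2 groups compared, 1 with DESeq2, and 0 to 2 with 1 library left out. The minimum of 10 counts takes Cbln2 and Cbln4 out of the test, since tumor 1 had 5 and 7 reads of them. The cause of the other changes was not tested. Over all genes, 1873 were called between tumors and P7 cerebella. They were 1853 with at least 10 counts in every library, 370 with the replicate block, 229 with only the 2 groups compared and 1120 with limma. With 1 library left out they ran from 150 without P7 cerebellum 2 to 9932 without tumor 3. Between SHH MB and P7 cerebella 6883 of 29018 genes were called with only the 2 groups compared.

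All sign changes were in members with no call against P7 cerebella. Cbln1 turned from -0.04 to 0.00718 with RLE factors, 0.0203 with no filter, 0.0425 with DESeq2, 0.13 without tumor 3 and 0.0226 without P7 cerebellum 2, with a range of -0.83 to 0.13 over single libraries left out. Nrxn3 turned from 0.18 to -0.22 with at least 10 counts in every library, -0.20 with the replicate block, -0.0391 with only the 2 groups compared, -0.43 with limma, -0.60 without tumor 1 and -0.0435 without P7 cerebellum 3, with a range of -0.60 to 0.34 over single libraries left out. Cbln3 was higher in the tumors under all alternatives run, by 2.94 to 4.41 against P7 cerebella and by 4.74 to 6.26 against SHH MB, and against P7 cerebella its adjusted p was 0.0778 with the replicate block, 0.0921 with only the 2 groups compared and 0.0517 with limma. The median of all genes against P7 cerebella was -0.05 and moved to -0.25 with no filter, -0.26 with DESeq2 and -0.23 with limma.

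Libraries with the same replicate number did not deviate together: over 9 such pairs r ran from -0.27 to 0.16, and 3 of 9 libraries correlated best with their own number. The numbers were therefore not used to pair libraries, and the block lowered the genes called against P7 cerebella from 1873 to 370. At these depths, 3 counts are the floor, and Cbln2 and Cbln4 lay near it in tumor 1.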
